A study of Mus musculus with 10 samples.

Results

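Cell junction genes were followed across 3 kinds of mouse cells: hepatocyte-like cells differentiated from embryonic stem cells (ES_HLC, n = 3 arrays), hepatocytes of adult liver (Ad_Hep, n = 3) and undifferentiated embryonic stem cells (mESC, n = 4). The genes were 10 listed by name, namely the cadherins Cdh1 and Cdh2, the adhesion molecule Epcam, the claudins Cldn1, Cldn2, Cldn3, Cldn4, Cldn6 and Cldn7, and the scaffold Tjp1. All 10 of 10 were measured, out of 22180 genes on the arrays, each by the transcript cluster with the highest mean over the 10 arrays among clusters annotated with exactly 1 symbol. The strain given for every sample is a transgenic mouse whose CAG promoter drives luciferase together with GFP. Every sample also has a passage label of below 20, the adult hepatocytes included. No treatment is labelled. The sources used here do not give the length or the medium of the differentiation, nor how the hepatocytes were purified. The samples are called biological replicates, but nothing says whether they came from separate cultures or animals, so each p-value reflects only how far these arrays scatter, which may be technical.

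Epithelial cells are held together by adherens junctions, tight junctions, desmosomes and gap junctions. In adherens junctions, cadherins of neighbouring cells bind each other and are tied to actin through catenins; E-cadherin (Cdh1) is the cadherin of most epithelia, N-cadherin (Cdh2) that of neural and mesenchymal cells, and hepatocytes carry both. In tight junctions, claudins form the strands that seal the space between cells, and scaffolds such as ZO-1 (Tjp1) anchor them; in liver these strands close off the bile canaliculi. EpCAM marks pluripotent cells, fetal hepatoblasts and bile duct cells and is lost from mature hepatocytes.

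The values are log2 levels normalized by the authors. Array medians lay between 4.91 and 5.07, and a level of 5.5 was taken as the floor, below which a difference in log2 level need not measure a difference in transcript. Levels of different genes come from different probes and were not compared with each other. A gene was called, and is said to have risen or fallen, where limma's adjusted p was under 0.05 and the log2 levels differed by 1 or more; differences are given ± SE of the fit. In these bulk samples, fewer cells of a type and less RNA per cell cannot be told apart. Hepatocyte markers matched the adult label, with 8 of 8 above the floor in adult hepatocytes and a summed log2 level of 97.1 to 98.8, against 4 of 8 and 41.9 to 55.1 in hepatocyte-like cells and 3 of 8 and 39.1 to 39.6 in stem cells. The group means of Cps1, Cyp3a11, Tat and Slco1b2 lay below the floor in hepatocyte-like cells, although replicate 3 read 6.56 for Cps1 and 7.22 for Tat. Hepatocyte-like replicate 3 stood apart, with albumin (Alb) at 10.80 against 4.85 and 5.14 in replicates 1 and 2. Cyp2e1 read 6.83 there against 5.21 and 5.33, so Alb and Cyp2e1 lay above the floor in replicate 3 only. In stem cells the means of Apoa1 (5.54) and Cps1 (5.60) lay just above the floor. Adult hepatocytes also held transcripts of other liver cells. There 6 of 7 endothelial markers lay above the floor, with a summed log2 level of 50.1 to 50.6. That sum was 37.2 to 41.6 in hepatocyte-like cells and 37.4 to 39.2 in stem cells. Pecam1, 1 of the 6, was higher in stem cells, at 9.52 against 7.29 in adult hepatocytes and 6.44 in hepatocyte-like cells. Of 7 Kupffer cell and leukocyte markers 4 lay above the floor in adult hepatocytes, with a sum of 43.2 to 44.2. It was 33.1 to 35.1 in hepatocyte-like cells and 34.6 to 35.3 in stem cells. Cd68, 1 of the 4, was lowest in adult hepatocytes, at 7.06 against 7.90 in hepatocyte-like and 9.53 in stem cells.

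Hepatocyte-like cells shared a raised Cdh2 with adult hepatocytes and had a raised Cldn6, which lay below the floor in adult hepatocytes. Relative to stem cells 5 of the 10 genes rose and 0 fell, where 16.0% of all genes were called, 8.61% higher and 7.35% lower. At an unadjusted limma p under 0.05, 5 of the 10 were higher and 1 lower. Relative to adult hepatocytes 6 were higher and 3 lower, where 23.0% of all genes were called, 13.9% higher and 9.12% lower. Between adult hepatocytes and stem cells 4 rose and 3 fell, where 26.6% of all genes were called, 11.0% higher and 15.6% lower. The arrays of the groups did not overlap in 6, 9 and 8 of the 10 genes in these 3 comparisons, and in 34.6%, 45.1% and 46.9% of all genes. Under cyclic loess the balance of all genes shifted, to 2322 higher and 2413 lower in hepatocyte-like against adult cells in place of 3083 and 2023, and to 2975 higher and 2578 lower in adult against stem cells in place of 2443 and 3450. With each array centred on its median, hepatocyte-like against stem cells gave 1714 higher and 1841 lower in place of 1909 and 1631. The median log2 difference of the 10 genes was 0.91, 1.24 and 0.08 in these 3 comparisons, and that of all genes -0.01, -0.04 and 0.05. The 3 comparisons share arrays with each other.

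**Figure D1:**
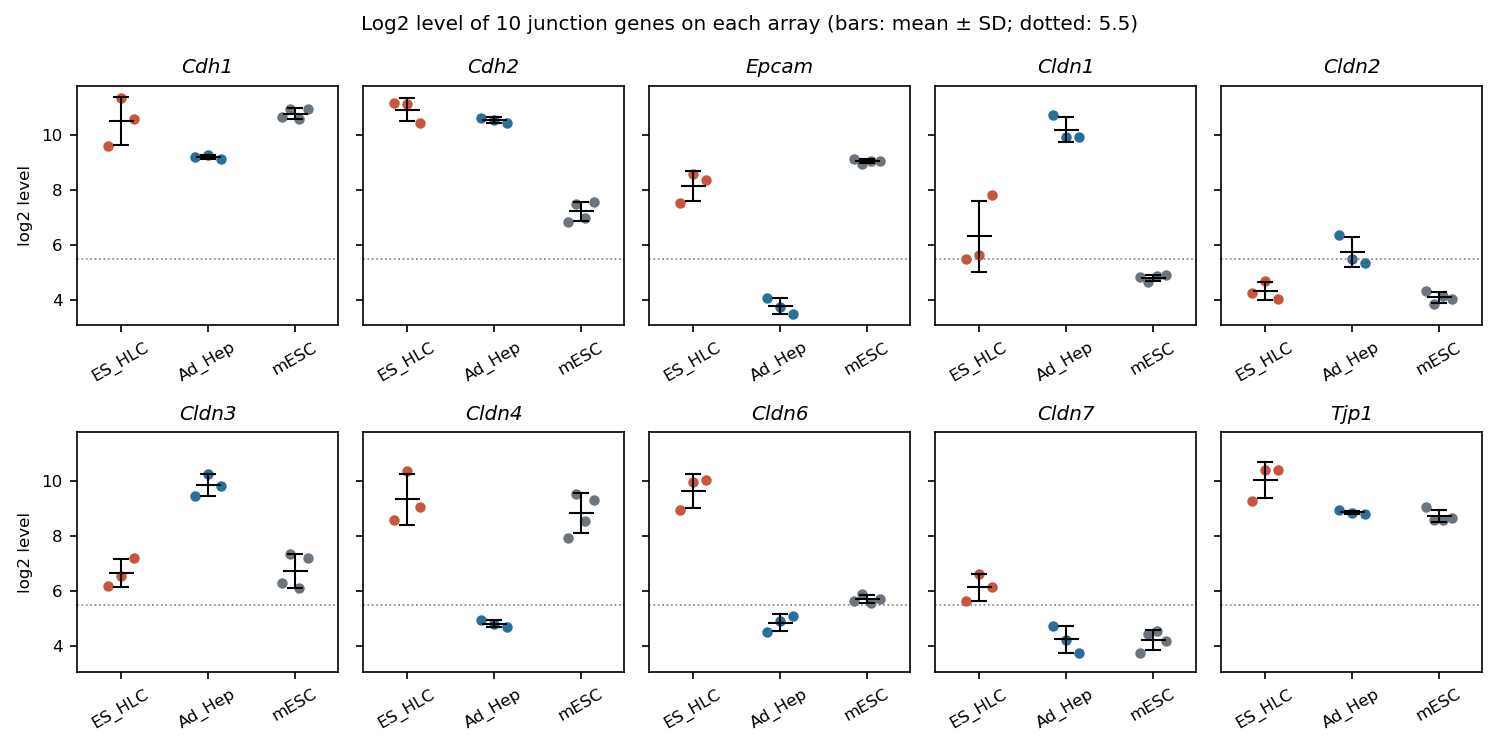
Log2 level (y axis) of each of the 10 junction genes on each array of hepatocyte-like cells (ES_HLC, 3 arrays), adult hepatocytes (Ad_Hep, 3) and embryonic stem cells (mESC, 4), with the mean and SD as bars and the floor of 5.5 dotted. Cldn1, Cldn2 and Cldn3 are highest in adult hepatocytes, Cldn6, Cldn7 and Tjp1 in hepatocyte-like cells, and Epcam and Cldn4 are at the bottom in adult hepatocytes.

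Of the cadherins, Cdh2 read 11.18, 11.12 and 10.43 in hepatocyte-like replicates 1 to 3, 10.63, 10.55 and 10.44 in adult hepatocytes, and 6.83, 7.47, 6.99 and 7.57 in stem cell replicates 1 to 4. The 3 hepatocyte-like arrays overlapped the adult ones, and both lay above every stem cell array. Cdh2 rose by 3.70 ± 0.23 in hepatocyte-like cells over stem cells (12.96-fold, adjusted p = 1.68e-07) and by 3.33 ± 0.23 in adult hepatocytes over stem cells (10.03-fold, adjusted p = 8.68e-08). Between hepatocyte-like and adult cells it was not called (0.37 ± 0.24, 95% interval -0.16 to 0.90, adjusted p = 0.277), and under cyclic loess that difference turned to -0.07. A dimmer second cluster of Cdh2 gave 3.49 ± 0.28 and 2.97 ± 0.28 over stem cells.

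Cdh1 scattered widely among the hepatocyte-like arrays. It read 9.61, 11.35 and 10.58 in hepatocyte-like cells, 9.20, 9.26 and 9.14 in adult hepatocytes, and 10.64, 10.94, 10.58 and 10.95 in stem cells. Hepatocyte-like replicate 1 lay below the stem cell arrays and near the adult ones, whereas replicate 2 lay above all others. The difference between hepatocyte-like and stem cells was -0.26 ± 0.31 (95% interval -0.93 to 0.40, adjusted p = 0.609). Cdh1 fell by 1.58 ± 0.31 in adult hepatocytes relative to stem cells (adjusted p = 9.27e-04). Hepatocyte-like cells exceeded adult hepatocytes by 1.31 ± 0.33 (adjusted p = 0.00666), a call lost without hepatocyte-like replicate 2 (0.89), with the gene's clusters averaged (0.90) and under cyclic loess (0.84, adjusted p = 0.0730, where the alternatives spanned 8.40e-05 to 0.0730). The second, dimmer cluster of Cdh1 disagreed with the first: it read 4.76, 6.33 and 5.71 in hepatocyte-like cells, 4.97, 5.09 and 5.27 in adult hepatocytes and 6.79, 6.41, 6.68 and 7.01 in stem cells. By that cluster Cdh1 was called lower in hepatocyte-like than in stem cells (-1.12 ± 0.29, limma adjusted p = 0.0117 over all clusters) and was not called against adult cells (0.49 ± 0.32).

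Of 21 other cadherin genes, 5 rose and 1 fell in hepatocyte-like cells relative to stem cells, where 16.0% of all genes were called. In hepatocyte-like against adult cells 5 of 21 were called, about the share of all genes (23.0%). In adult against stem cells 3 of 21 were called, below the share of all genes (26.6%). These 3 shares also stand beside the counts of the lists that follow. Cdh7, Cdh8, Cdh9, Cdh12, Cdh13, Cdh16, Cdh17, Cdh18, Cdh19, Cdh20, Cdh22, Cdh23 and Cdh26 had every group mean below the floor. So had 8933 of all 22180 genes. For such genes, here and in the lists that follow, a missing call need not mean an unchanged transcript. Osteoblast cadherin Cdh11, typical of mesenchymal cells, read 10.82, 9.03 and 7.16 in hepatocyte-like cells, 4.29 to 4.95 in adult hepatocytes and 4.00 to 4.71 in stem cells, a rise of 4.71 ± 0.60 over stem cells (adjusted p = 7.31e-05). Its highest value was in replicate 1, which had the lowest Cdh1. Replicate 2, with the highest Cdh1, still exceeded replicate 3 in Cdh11 (9.03 against 7.16). Cdh10 rose by 2.82 ± 0.42 over stem cells and Cdh6 by 2.10 ± 0.47. Cdh10 read 5.35 and 5.47 in hepatocyte-like replicates 1 and 2, below the floor, and 7.61 in replicate 3, with stem cells at 3.16 to 3.48. Cdh6 read 7.24, 9.31 and 6.72, and without replicate 2 its rise was 1.32. VE-cadherin, Cdh5, the cadherin of endothelium, rose by 1.72 ± 0.25 and was higher still in adult hepatocytes, by 3.55 ± 0.25 over stem cells; the part of the endothelial cells named above was not tested. P-cadherin Cdh3 was higher in hepatocyte-like than in adult cells by 3.40 ± 0.22, as were Cdh11 (4.37 ± 0.64), Cdh10 (2.78 ± 0.45) and Cdh6 (2.24 ± 0.50, and 1.47 without replicate 2), which makes 4 higher and 1 lower of 21. In adult hepatocytes against stem cells 1 rose (Cdh5) and 2 fell, Cdh3 (-1.82 ± 0.21) and Cdh4 (-1.37 ± 0.20, and -0.68, not called, with the gene's clusters averaged).

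Catenins and other plaque genes tie cadherins to actin. In hepatocyte-like relative to stem cells 1 of 14 rose, vinculin Vcl (2.0004 ± 0.17), and 2 fell, Pkp4 (-1.53 ± 0.20) and Plekha7 (-1.47 ± 0.20); without hepatocyte-like replicate 1, 3 rose and 3 fell. Hepatocyte-like cells exceeded adult hepatocytes in 8 of 14 and fell below them in 1, with Vcl at 2.58 ± 0.18, the delta-catenin Ctnnd2 at 1.91 ± 0.36, alpha-catenin Ctnna1 at 1.45 ± 0.21 and Pkp4 at -1.96 ± 0.22. Adult hepatocytes had 6 of 14 lower than stem cells and 0 higher (0 at an unadjusted limma p under 0.05), led by Plekha7 (-2.78 ± 0.20), the actin-binding Lima1 (-1.19 ± 0.18), the p120 relative Arvcf (-1.14 ± 0.34) and Ctnnd2 (-1.11 ± 0.33). Under cyclic loess 3 were higher and 1 lower in hepatocyte-like against adult cells, with Ctnna1 at 0.99, and 1 was lower in adult against stem cells, with Lima1 at -0.67. In adult against stem cells the Arvcf call was also lost under quantile normalization, array weights and the replicate block, without stem cell replicate 4 and without adult replicate 1 (-0.79), and the Ctnnd2 call without stem cell replicate 3 (-0.97) and without adult replicate 3 (-0.94).

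Epcam was high in hepatocyte-like and stem cells and at the bottom in adult hepatocytes. It read 7.54, 8.57 and 8.37 in hepatocyte-like cells, 4.05, 3.76 and 3.48 in adult hepatocytes, and 9.12, 8.96, 9.04 and 9.06 in stem cells. The 3 kinds did not overlap. Against adult hepatocytes it was higher in hepatocyte-like cells by 4.40 ± 0.25 (adjusted p = 1.42e-08), and it fell by 5.28 ± 0.23 in adult hepatocytes against stem cells (adjusted p = 1.02e-09); the adult level lies below the floor, so these folds are uncertain. Hepatocyte-like cells stayed 0.89 ± 0.23 below stem cells (adjusted p = 0.0107), short of the minimum difference of 1 but past it without replicate 2 (-1.09).

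The matriptase system is a membrane protease and its inhibitors that act on EpCAM and claudins at the cell surface. In 3 of its 4 measured genes it was higher in both hepatocyte-like and stem cells than in adult hepatocytes. St14, matriptase itself, read 9.03, 10.68 and 9.79 in hepatocyte-like cells, 5.16, 5.12 and 5.03 in adult hepatocytes, and 8.77, 9.61, 8.98 and 9.70 in stem cells. Hepatocyte-like cells exceeded adult hepatocytes in St14 by 4.72 ± 0.36, the inhibitor Spint1 by 4.05 ± 0.38 and the protease Prss8 by 2.44 ± 0.39, so 3 of 4 were higher and 0 lower (0 at an unadjusted limma p under 0.05). In adult hepatocytes the same 3 fell relative to stem cells (St14 -4.16 ± 0.33, Spint1 -4.04 ± 0.36, Prss8 -1.73 ± 0.37). The other inhibitor, Spint2, passed in none of the comparisons (0.9986 ± 0.27 in hepatocyte-like against stem cells, 0.72 ± 0.29 in hepatocyte-like against adult cells, 0.28 ± 0.27 in adult against stem cells). Between hepatocyte-like and stem cells 0 of 4 were called by limma, with 1 higher and 0 lower at an unadjusted p under 0.05; 1 was called under quantile normalization, under cyclic loess and without hepatocyte-like replicate 1, stem cell replicate 2 or stem cell replicate 3.

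The claudins of the list divided by cell kind. Promoter windows of 4 junction genes are shown, as they include neighbours that moved in opposite directions and genes higher in hepatocyte-like than adult cells. Each window runs from 250 bases before to 50 bases after the start site in RefSeq, build GRCm38.p6, and 8 of the 10 genes had a window. Capitals mark the E-box CAGGTG on either strand (CACCTG on the other), the core sequence read by Snail and Zeb repressors. The windows are chr17:87635729-87636028 on the plus strand for Epcam, chr17:23679115-23679414 on the plus strand for Cldn6, chr5:134946885-134947184 on the minus strand for Cldn4 and chr5:134985964-134986263 on the plus strand for Cldn3.
Epcam: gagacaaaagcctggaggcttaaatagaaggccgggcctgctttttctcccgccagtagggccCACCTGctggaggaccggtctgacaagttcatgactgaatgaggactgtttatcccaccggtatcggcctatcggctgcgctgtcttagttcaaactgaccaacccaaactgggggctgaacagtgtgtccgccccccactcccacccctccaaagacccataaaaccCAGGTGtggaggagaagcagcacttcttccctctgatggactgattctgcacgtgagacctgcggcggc
Cldn6: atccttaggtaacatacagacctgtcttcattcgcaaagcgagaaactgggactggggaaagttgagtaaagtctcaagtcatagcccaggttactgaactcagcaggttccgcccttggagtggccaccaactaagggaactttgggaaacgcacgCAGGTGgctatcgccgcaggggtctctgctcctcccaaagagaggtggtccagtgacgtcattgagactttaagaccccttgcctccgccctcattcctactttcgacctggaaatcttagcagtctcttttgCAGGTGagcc
Cldn4: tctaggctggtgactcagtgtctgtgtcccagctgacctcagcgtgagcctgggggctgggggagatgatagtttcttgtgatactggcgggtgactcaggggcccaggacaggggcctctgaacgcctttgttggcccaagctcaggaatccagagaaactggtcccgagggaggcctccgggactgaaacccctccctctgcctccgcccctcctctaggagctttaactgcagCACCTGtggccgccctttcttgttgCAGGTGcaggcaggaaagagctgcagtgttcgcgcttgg
Cldn3: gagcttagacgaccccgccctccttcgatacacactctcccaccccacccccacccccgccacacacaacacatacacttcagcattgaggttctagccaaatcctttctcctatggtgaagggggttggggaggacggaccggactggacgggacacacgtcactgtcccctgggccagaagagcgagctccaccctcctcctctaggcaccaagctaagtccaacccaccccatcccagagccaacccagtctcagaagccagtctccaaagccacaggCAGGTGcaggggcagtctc
The matches start at -187 and -19 relative to the start site in Epcam, -93 and 41 in Cldn6, -14 and 12 in Cldn4 and 32 in Cldn3. Of the 9 windows of these genes (Cldn7 has 2), 5 held at least 1 match and 4 at least 2, whereas 20.2% of all 32851 windows held at least 1 and 2.88% at least 2. Windows with 0 matches were those of Cldn1, Cldn2 and Tjp1 and the more upstream of Cldn7. Cdh1 and Cdh2 had no window. The motif was chosen with the expression values known, no other motif was searched, and a match is a description of the letters in the window.

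Cldn1, Cldn2 and Cldn3 formed the adult set. Cldn1, a strand claudin of hepatocytes and bile ducts, read 5.48, 5.65 and 7.80 in hepatocyte-like cells, 10.71, 9.93 and 9.91 in adult hepatocytes, and 4.82, 4.65, 4.87 and 4.89 in stem cells. Hepatocyte-like replicates 1 and 2 were near the floor. Replicate 3, the one with albumin at 10.80, was more than 2 log2 units above them. Replicate 3 also had the highest mean log2 level of trophoblast markers, 7.04 against 5.55 and 5.79 in replicates 1 and 2. The same held for pluripotency markers, at 5.11 against 4.52 and 4.48. Whether any of these has a part in the Cldn1 value was not tested. Cldn1 was lower in hepatocyte-like than in adult cells (-3.88 ± 0.47, adjusted p = 2.63e-05, and -4.62 without replicate 3). It rose by 5.38 ± 0.44 in adult hepatocytes over stem cells (adjusted p = 5.08e-07). The rise in hepatocyte-like over stem cells, 1.4996 ± 0.44 (adjusted p = 0.0218), was lost without hepatocyte-like replicate 3 (0.76) and without stem cell replicate 2 (1.45, adjusted p = 0.0514, where the alternatives spanned 0.00688 to 0.0514).

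Cldn3 read 6.20, 6.57 and 7.23 in hepatocyte-like cells, 9.46, 10.26 and 9.85 in adult hepatocytes, and 6.29, 7.34, 6.11 and 7.23 in stem cells. Hepatocyte-like and stem cell arrays overlapped, with a difference of -0.08 ± 0.34 (95% interval -0.81 to 0.66, adjusted p = 0.912), and every adult array lay above them. Cldn3 was lower in hepatocyte-like than in adult cells (-3.19 ± 0.36, adjusted p = 1.33e-05) and higher in adult than in stem cells (3.11 ± 0.34, 8.65-fold, adjusted p = 6.26e-06). Cldn2, which forms channels for small cations, read 4.25, 4.69 and 4.01 in hepatocyte-like cells, 6.37, 5.49 and 5.34 in adult hepatocytes and 4.31, 3.86, 4.15 and 4.03 in stem cells. Only 1 of the 10 arrays, adult replicate 1, was above the floor. It was called lower in hepatocyte-like than in adult cells (-1.42 ± 0.27, adjusted p = 9.24e-04) and higher in adult than in stem cells (1.65 ± 0.25, adjusted p = 1.19e-04), and its difference between hepatocyte-like and stem cells, 0.23 ± 0.25, was not called.

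Cldn4, which lies next to Cldn3 on chromosome 5 with 0 protein-coding genes between them in RefSeq, had the opposite order. It read 8.60, 10.39 and 9.06 in hepatocyte-like cells, 4.94, 4.81 and 4.69 in adult hepatocytes, and 7.95, 9.53, 8.54 and 9.33 in stem cells. Every adult array was below the floor and every other array far above it. Cldn4 was higher in hepatocyte-like than in adult cells by 4.54 ± 0.45 (adjusted p = 3.79e-06) and fell by 4.02 ± 0.42 in adult hepatocytes relative to stem cells (adjusted p = 4.33e-06). Between hepatocyte-like and stem cells it was not called (0.51 ± 0.42, 95% interval -0.40 to 1.42, adjusted p = 0.439). Stem cell replicates 2 and 4 read higher than replicates 1 and 3 in both neighbours. That split was not particular to them. Elf3 read 8.36, 9.83, 8.55 and 9.89 in stem cell replicates 1 to 4, and Ildr1 8.60, 9.38, 8.68 and 9.36. Other genes had the split reversed, such as Tdgf1 at 11.54, 10.50, 11.43 and 10.62.

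Cldn6 and Cldn7 were highest in hepatocyte-like cells. Cldn6, a claudin of embryonic epithelia, read 8.95, 9.98 and 10.04 in hepatocyte-like cells, 4.53, 4.92 and 5.12 in adult hepatocytes, and 5.65, 5.92, 5.57 and 5.72 in stem cells. It rose by 3.94 ± 0.25 over stem cells (15.35-fold, adjusted p = 2.31e-07) and was 4.80 ± 0.27 above adult hepatocytes (adjusted p = 1.49e-08). Adult hepatocytes lay 0.86 ± 0.25 below stem cells (adjusted p = 0.0147), too little to be called and near or below the floor in both. Its direct neighbour on chromosome 17, Cldn9, singled out after its values were seen, stayed between 5.01 and 5.62 in hepatocyte-like cells, averaged 5.47 ± 0.24 in adult hepatocytes and 5.61 ± 0.12 in stem cells (SD, n = 3 and 4). It was not called in hepatocyte-like against stem cells (-0.27 ± 0.18), hepatocyte-like against adult cells (-0.13 ± 0.19) or adult against stem cells (-0.13 ± 0.18).

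Cldn7, a partner of EpCAM in epithelia, read 5.64, 6.62 and 6.17 in hepatocyte-like cells, 4.75, 4.24 and 3.77 in adult hepatocytes and 3.75, 4.46, 4.55 and 4.18 in stem cells. The 3 hepatocyte-like arrays were above the floor and the other 7 below it. It rose by 1.91 ± 0.28 over stem cells (adjusted p = 2.31e-04) and was 1.89 ± 0.30 above adult hepatocytes (adjusted p = 2.63e-04). Adult hepatocytes and stem cells differed by 0.02 ± 0.28 (95% interval -0.60 to 0.63), a difference that turned negative under quantile normalization, median centring and cyclic loess. Of the 17 other claudin genes measured, 0 were called between hepatocyte-like and stem cells by limma, with 2 higher and 1 lower at an unadjusted p under 0.05. Among them Cldn8, Cldn10, Cldn13, Cldn14, Cldn15, Cldn16, Cldn17, Cldn18, Cldn20, Cldn22 and Cldn24 had every group mean below the floor. Their lack of a call need not mean an unchanged transcript. Cldn12 and the endothelial claudin Cldn5 were lower in hepatocyte-like than in adult cells (-1.34 ± 0.19 and -1.23 ± 0.22), and rose in adult hepatocytes over stem cells by 2.05 ± 0.18 and 1.06 ± 0.20. Cldn5 lost the call against stem cells without stem cell replicate 3 (0.94) and under cyclic loess (0.97).

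**Figure D2:**
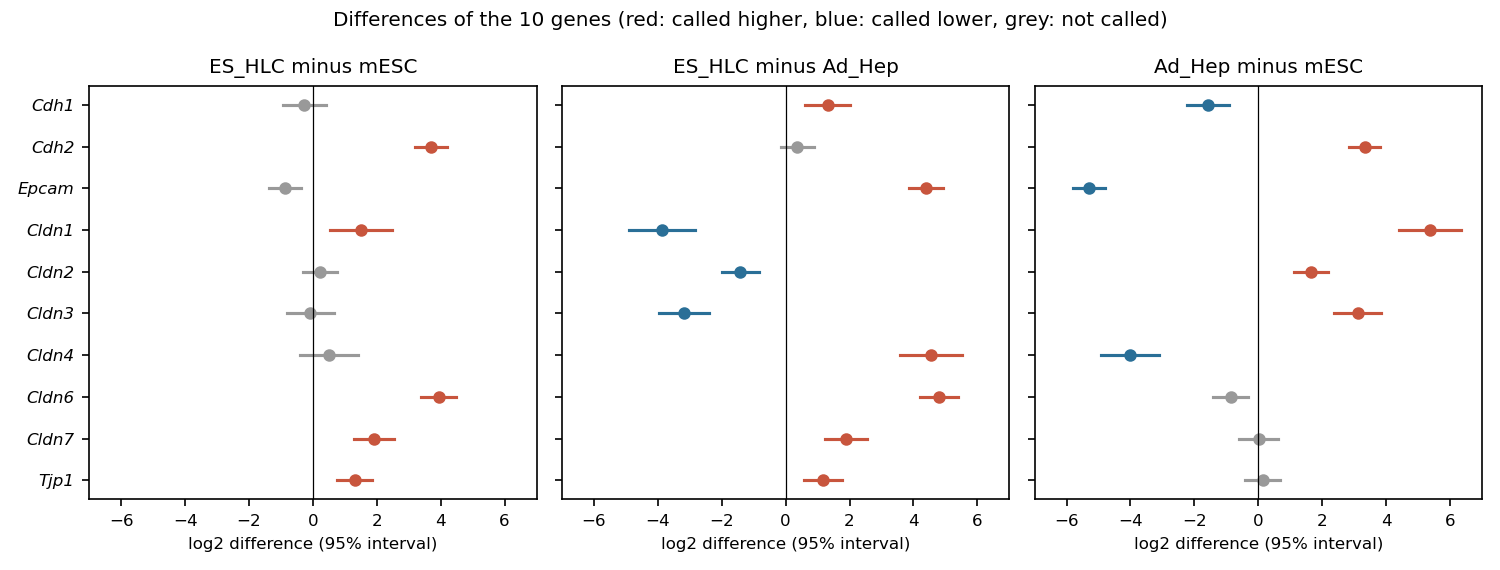
Log2 difference (x axis) of each junction gene in hepatocyte-like against stem cells, hepatocyte-like against adult cells and adult against stem cells, as points with 95% intervals from limma, red where called higher, blue where called lower and grey where not called. Cdh2 stands at 3.70 and 3.33 over stem cells in the outer panels and at 0.37 in the middle one, while Cldn1 and Cldn3 stand at -3.88 and -3.19 in the middle panel.

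The scaffold Tjp1, ZO-1, was highest in hepatocyte-like cells. It read 9.31, 10.43 and 10.41 there, 8.95, 8.85 and 8.82 in adult hepatocytes, and 9.09, 8.60, 8.61 and 8.66 in stem cells. It rose by 1.31 ± 0.25 over stem cells (2.48-fold, adjusted p = 0.00158). Against adult hepatocytes it was higher by 1.18 ± 0.27 (adjusted p = 0.00382), with the call lost without hepatocyte-like replicate 2 (0.99), without replicate 3 (0.99) and under cyclic loess (0.74). Adult hepatocytes and stem cells differed by 0.13 ± 0.25 (95% interval -0.41 to 0.68, adjusted p = 0.722).

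Other tight junction genes moved in many places. Of 18 measured, 8 rose and 3 fell in hepatocyte-like relative to stem cells. Ocln (1.0058 ± 0.25) lost its call under median centring, quantile normalization and the replicate block. It was also lost without hepatocyte-like replicate 2 or stem cell replicate 2 or 4. Magi3 lost its call without hepatocyte-like replicate 3 (0.93), Lsr with the gene's clusters averaged (0.88) and Jam3 without hepatocyte-like replicate 2 (-0.91). The plaque protein Cgnl1 read 7.32, 7.78 and 8.35 in hepatocyte-like cells, 8.38, 8.19 and 8.14 in adult hepatocytes and 4.91 to 5.54 in stem cells, a rise of 2.52 ± 0.23 over stem cells, and the polarity scaffold Patj rose by 2.25 ± 0.26. The adhesion molecule Jam2 fell by 4.16 ± 0.18 and the tricellular junction gene Ildr1 fell by 3.09 ± 0.32. In adult hepatocytes 10 rose and 3 fell relative to stem cells, among them Ildr2 (4.49 ± 0.26), Ildr1 (-4.23 ± 0.32), Jam2 (-3.62 ± 0.18) and the tricellular lipoprotein receptor Lsr (3.48 ± 0.30). Hepatocyte-like cells had 5 below and 3 above the adult level, with Ildr2 at -3.52 ± 0.28, Igsf5 at -2.38 ± 0.22, Jam3 at 1.86 ± 0.24 and Lsr at -1.67 ± 0.32. Also above were Patj (1.13 ± 0.27) and Ildr1 (1.15 ± 0.35, with overlapping arrays). Patj lost its call under cyclic loess, under quantile normalization and without hepatocyte-like replicate 3 (0.87). Ildr1 lost it under array weights and cyclic loess, and without hepatocyte-like replicate 2 or 3 or adult replicate 1 or 2. In 17 of the 18 the hepatocyte-like and stem cell arrays did not overlap, as they did not in 34.6% of all genes; that share was 17 of 18 for adult against stem cells, beside 46.9% of all genes. Hepatocyte-like and adult arrays did not overlap in 10 of the 18, beside 45.1% of all genes.

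Desmosomal genes, which build the spot-like junctions anchored to keratin filaments, rose in part in hepatocyte-like cells and in adult hepatocytes, each against stem cells. In hepatocyte-like cells 5 of 14 rose and 0 fell (0 lower at an unadjusted limma p under 0.05), with Perp up by 3.28 ± 0.31, desmocollin Dsc2 by 3.25 ± 0.20, desmoplakin Dsp by 2.51 ± 0.32 and periplakin Ppl by 1.45 ± 0.23. In adult hepatocytes 4 rose and 1 fell, with Dsc2 up by 4.02 ± 0.20, Perp by 2.30 ± 0.31 and Dsp by 1.91 ± 0.32, and plakoglobin Jup lower (-1.11 ± 0.23, and not called under cyclic loess, -0.64, under quantile normalization, -0.98, or without adult replicate 1, -0.90). Against stem cells the remaining risers were Pkp2 in hepatocyte-like cells (1.05 ± 0.30) and Ppl in adult hepatocytes (1.0063 ± 0.23). The Pkp2 call was lost under array weights, median centring and the replicate block. It was also lost without hepatocyte-like replicate 2 or 3, or stem cell replicate 2 or 4. The Ppl call was lost with median centring and without adult replicate 2 or 3, or stem cell replicate 1 or 2. Dsc2 averaged 8.08 ± 0.44 in hepatocyte-like cells, 8.84 ± 0.20 in adult hepatocytes and 4.83 ± 0.11 in stem cells (SD, n = 3, 3 and 4). Between hepatocyte-like and adult cells 1 was higher, Jup (1.28 ± 0.25, and 0.89, not called, under cyclic loess), and 1 lower, desmoglein Dsg2 (-1.13 ± 0.32, and not called without hepatocyte-like replicate 1, -0.64, or with the gene's clusters averaged, -0.79).

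Gap junction genes, whose connexins form channels between cells, differed in 4 of 9 between hepatocyte-like and adult cells. The hepatocyte connexins Gjb1 and Gjb2 read 9.41 to 9.93 and 10.59 to 10.63 in adult hepatocytes, and in hepatocyte-like cells 4.92 to 5.30 and 5.44 to 5.96. They were lower in hepatocyte-like than in adult cells (-4.53 ± 0.21 and -4.97 ± 0.18). Connexin 43, Gja1, read 8.89, 8.68 and 9.41 in hepatocyte-like cells, 4.81 to 5.36 in adult hepatocytes and 4.97 to 5.91 in stem cells, and was higher in hepatocyte-like cells by 3.98 ± 0.26 over adult and 3.54 ± 0.25 over stem cells. Of the 9 genes measured, 1 rose and 1 fell (Gjb5, -1.60 ± 0.28) in hepatocyte-like against stem cells, 2 were higher and 2 lower in hepatocyte-like against adult cells, and 2 rose and 2 fell in adult against stem cells.

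Polarity genes, which set apical against basal membrane, were higher in hepatocyte-like than in adult cells in 7 of 13 and lower in 0 (1 lower at an unadjusted limma p under 0.05), with the kinase Prkci at 1.68 ± 0.21, Pard6b at 1.65 ± 0.32, the Crumbs partner Mpp5 at 1.56 ± 0.35 and Pard6g at 1.43 ± 0.23. Under cyclic loess 4 were higher. Adult hepatocytes had 4 lower than stem cells and 0 higher (1 higher at an unadjusted p), namely Prkci (-2.01 ± 0.20), Llgl2 (-1.95 ± 0.23), Llgl1 (-1.78 ± 0.26) and Scrib (-1.22 ± 0.15, and -0.86, not called, under cyclic loess). In hepatocyte-like against stem cells 3 rose, Mpp5 (1.47 ± 0.33), Dlg1 (1.16 ± 0.28) and Pard6b (1.02 ± 0.30), and 0 fell (4 lower at an unadjusted p); without hepatocyte-like replicate 3, 1 rose. The Pard6b call was also lost under array weights, median centring and the replicate block, and without hepatocyte-like replicate 2 or stem cell replicates 1 or 3 (0.90 to 1.04 over these).

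**Figure D3:**
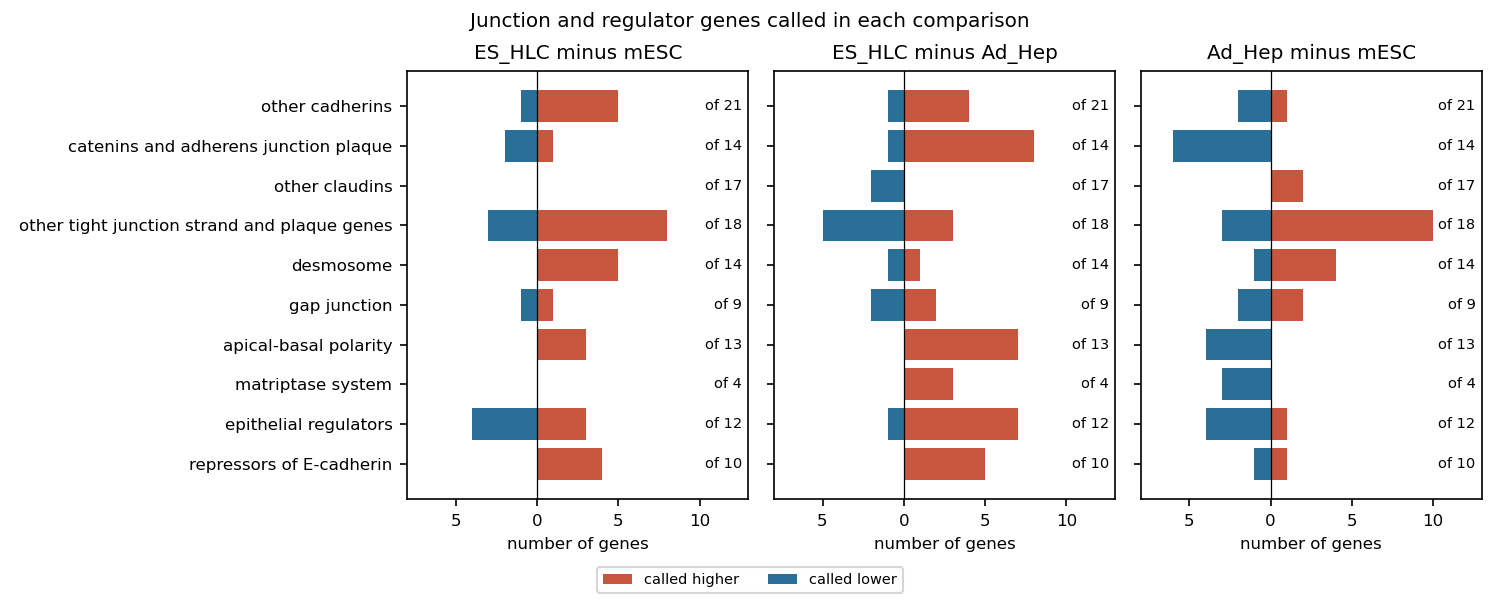
Number of genes called higher (red, to the right) and lower (blue, to the left) in each list of junction and regulator genes, for hepatocyte-like against stem cells, hepatocyte-like against adult cells and adult against stem cells, with the number measured at the right. Other tight junction genes have 8 higher and 3 lower in the first panel. Plaque genes have 8 higher in the second and 6 lower in the third. Of all genes 16.0%, 23.0% and 26.6% were called in the 3 panels.

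Regulators of these genes were then compared. Of 10 measured repressors of E-cadherin, 4 rose in hepatocyte-like relative to stem cells and 0 fell (1 lower at an unadjusted limma p under 0.05). Slug, Snai2, read 10.36, 10.44 and 9.27 in hepatocyte-like cells, 9.09, 9.11 and 9.20 in adult hepatocytes, and 6.24, 6.29, 6.13 and 6.02 in stem cells, a rise of 3.85 ± 0.24 in hepatocyte-like cells and of 2.96 ± 0.24 in adult hepatocytes. The mesenchymal homeobox gene Prrx1 read 8.83, 7.40 and 6.52 in hepatocyte-like cells, against 4.76 to 5.07 in adult hepatocytes and 4.53 to 4.77 in stem cells, a rise of 2.95 ± 0.39 over stem cells. Twist2 (1.10 ± 0.24) and Twist1 (1.04 ± 0.32) also rose, but without hepatocyte-like replicate 1 their differences were 0.81 and 0.54, which left 2 of 10 called. Both calls were lost under quantile normalization too, and that of Twist1 also with median centring and without stem cell replicate 1, 2 or 3. Twist2 read 6.21, 5.04 and 5.64 in hepatocyte-like cells and averaged 4.53 in stem cells and 4.24 in adult hepatocytes. These levels lie near or below the floor, so the Twist2 differences are uncertain. Relative to adult hepatocytes 5 were higher and 0 lower (0 at an unadjusted p), with Prrx1 at 2.64 ± 0.41, the E proteins Tcf3 and Tcf4 at 1.61 ± 0.25 and 1.47 ± 0.19 and Twist2 at 1.39 ± 0.26. In adult against stem cells 1 rose (Snai2) and 1 fell, Tcf3 (-2.30 ± 0.23).

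Regulators of epithelial identity split in hepatocyte-like relative to stem cells, 3 of 12 rising and 4 falling. The splicing factor Esrp1, which directs epithelial splice forms, read 5.77, 7.02 and 7.73 in hepatocyte-like cells, 3.90 to 4.13 in adult hepatocytes and 3.66 to 4.17 in stem cells, a rise of 2.83 ± 0.34. The Ets factor Elf3 (-3.42 ± 0.40), the Krüppel-like factor Klf4 (-2.41 ± 0.22) and the grainyhead factor Grhl3 (-1.85 ± 0.25) fell. Hepatocyte-like cells had 7 of 12 above adult hepatocytes and 1 below, with Klf5 at 4.10 ± 0.16, Esrp1 at 2.85 ± 0.37, Grhl2 at 1.84 ± 0.29 and Esrp2 at -2.0027 ± 0.38. In adult hepatocytes 1 rose over stem cells and 4 fell, led by Klf5 (-5.65 ± 0.15), Elf3 (-4.72 ± 0.40), Klf4 (-3.99 ± 0.22) and Grhl3 (-2.98 ± 0.25).

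**Figure D4:**
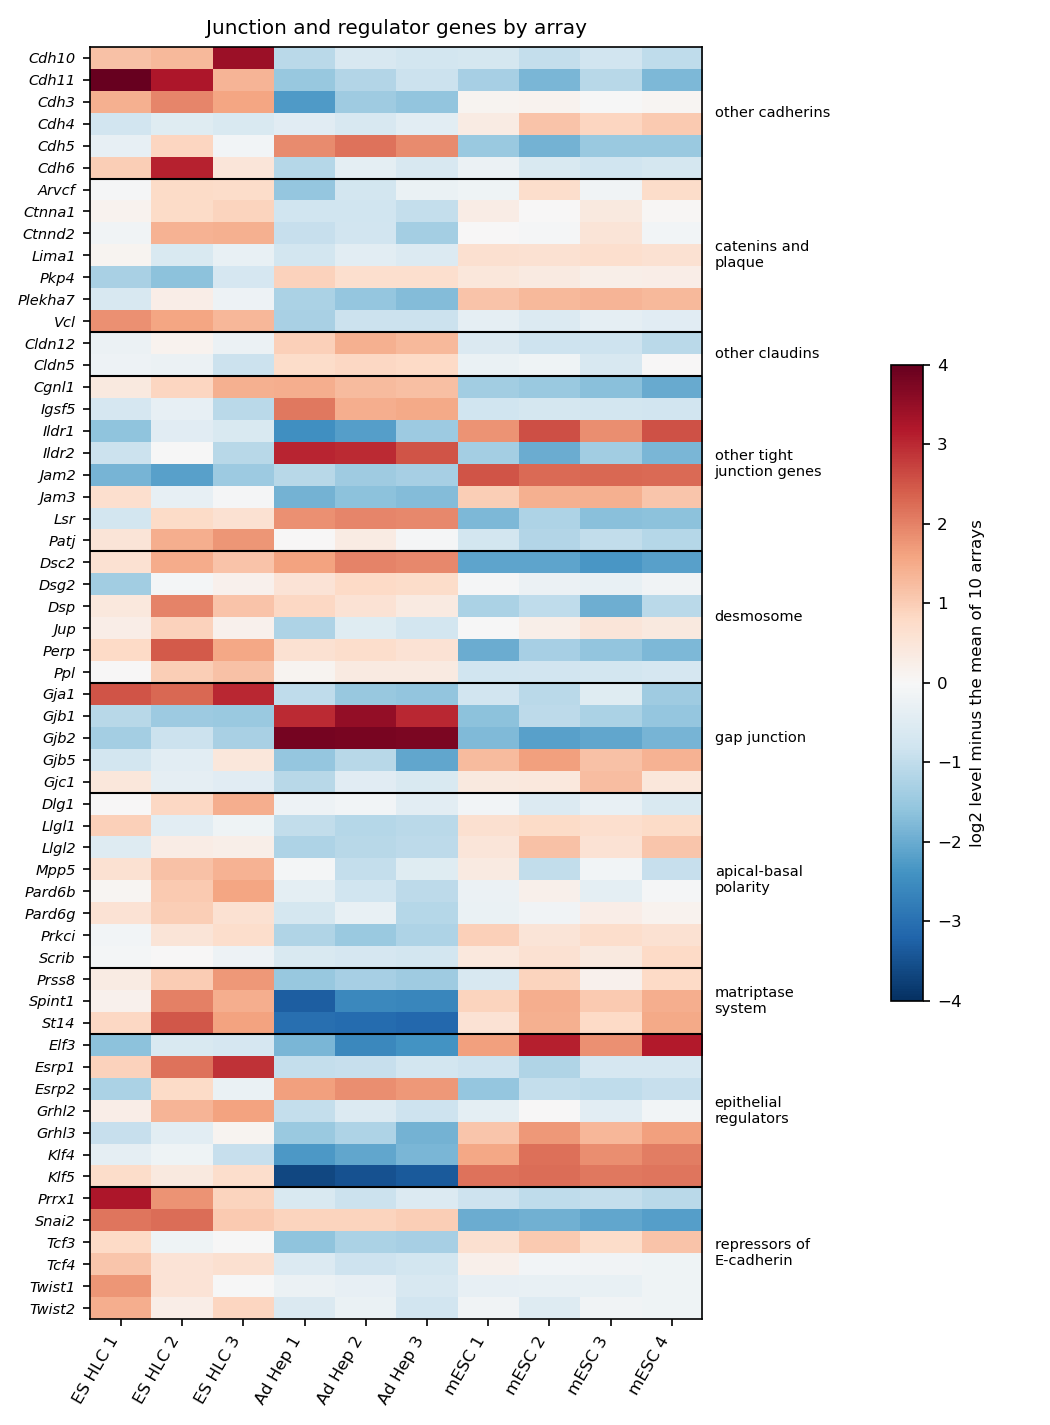
Log2 level minus the mean of the 10 arrays (colour) for the junction and regulator genes named by size from each list (rows) on each array (columns, hepatocyte-like cells, adult hepatocytes, stem cells). Gjb1 and Gjb2 are high in the 3 adult arrays, Gja1, Cdh11 and Prrx1 in the 3 hepatocyte-like arrays, and Jam2, Ildr1 and Elf3 in the 4 stem cell arrays.

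The 3 hepatocyte-like arrays differed among themselves in the same direction for most junction genes. Replicate 1 was the lowest of the 3 in 8 of the 10 genes (Cdh1, Epcam, Cldn1, Cldn3, Cldn4, Cldn6, Cldn7 and Tjp1) and the highest in Cdh2, whereas it was the lowest in 30.3% of all genes. Replicate 2 was the highest in 6. Of 8 markers of stellate cells and fibroblasts, replicate 1 was the highest in 5 (Col1a1, Col1a2, Col3a1, Postn and Pdgfrb) and replicate 2 in 3 (Acta2, Des and Lrat). The mean log2 level of the list was 9.94, 8.96 and 7.92 in replicates 1 to 3, with the collagen Col1a1 at 12.80, 11.92 and 9.80 and Acta2 at 12.54, 12.57 and 11.44. Across the groups 7 of 8 of these markers were above the floor in hepatocyte-like cells (summed log2 level 63.4 to 79.5, Lrat below), 6 of 8 in adult hepatocytes (48.1 to 48.8) and 4 of 8 in stem cells (42.7 to 45.9). Lrat went the other way, averaging 7.92 in adult hepatocytes, 4.36 in hepatocyte-like cells and 4.34 in stem cells. Its hepatocyte-like arrays read 4.45, 4.66 and 3.97, so their order is uncertain. Bile duct markers, which accompany EpCAM and Cldn4 in liver, had 3 of 4 above the floor in hepatocyte-like cells (mean log2 level of the list 6.96, 7.50 and 6.54 in replicates 1 to 3, Cftr below), 1 of 4 in adult hepatocytes (5.06 to 5.16) and 1 of 4 in stem cells (4.70 to 4.87). Pluripotency markers had 2 of 8 above the floor in hepatocyte-like cells (35.9 to 40.9), 0 of 8 in adult hepatocytes (35.2 to 36.7) and 7 of 8 in stem cells (75.0 to 75.6). Extraembryonic endoderm markers had 5 of 6 above the floor in hepatocyte-like cells (43.9 to 47.0), 6 of 6 in adult hepatocytes (42.6 to 42.9) and 3 of 6 in stem cells (32.0 to 33.8), and trophoblast markers 4 of 6 (33.3 to 42.2), 2 of 6 (29.9 to 32.4) and 4 of 6 (33.3 to 35.0) in the same order. The part of these cell types in the junction gene levels was not tested.

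**Figure D5:**
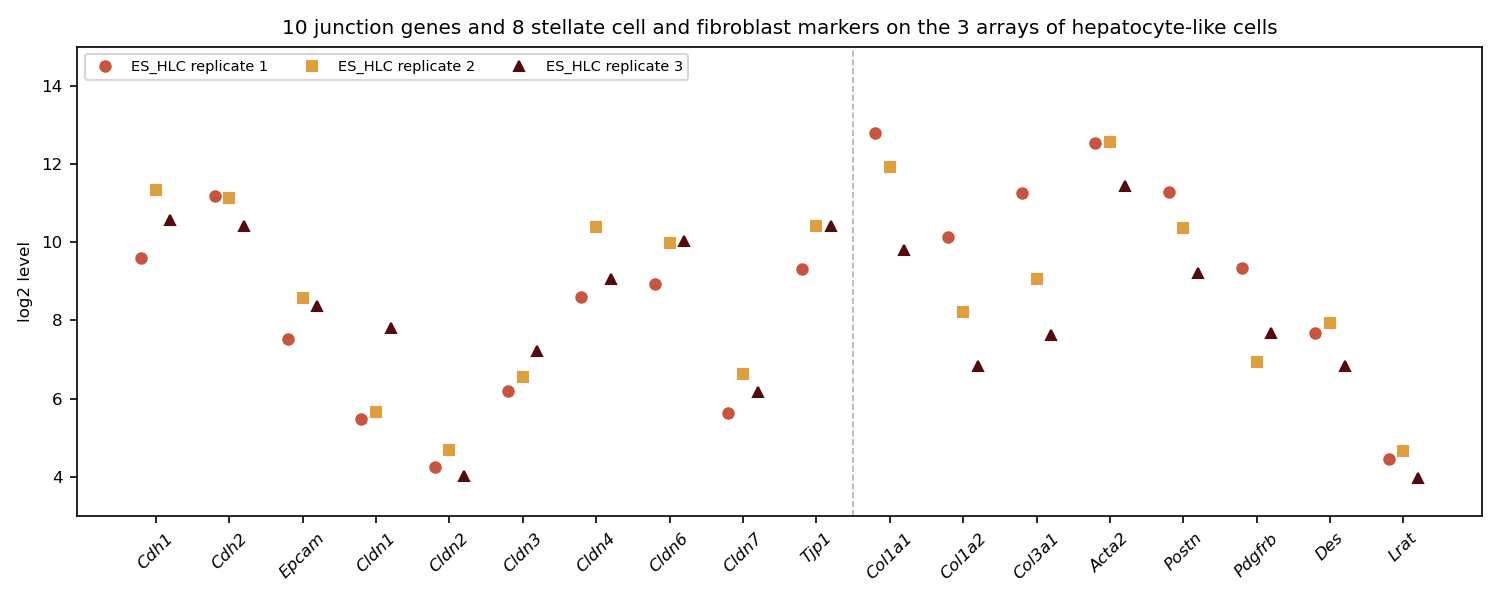
Log2 level (y axis) of the 10 junction genes (left of the dashed line) and of all 8 stellate cell and fibroblast markers (right) on the 3 arrays of hepatocyte-like cells. Replicate 1 is the lowest in 8 of 10 genes on the left, not in Cdh2 or Cldn2, and the highest in 5 of 8 on the right, not in Acta2, Des or Lrat.

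Genes with the most similar pattern over the 10 arrays were sought for Cdh1, Cdh2 and Epcam, as a description of arrays that fall into 3 kinds. Epcam was closest to the scaffold Akap12 (Pearson's r = 0.999), Eps15l1 (0.993) and Tex10 (0.991). Cdh2 was closest to the integrin-linked adaptor Parva (0.994), Vapb (0.987) and Mmd (0.987). Cdh1, whose hepatocyte-like arrays scattered, was closest to the kinase Sgk1 (0.977), Dpysl5 (0.955) and the oxidative stress factor Nfe2l2 (0.952).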

How the data were processed

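Per the labels' protocols, TRIzol extracts of 10 samples went through a column cleanup before biotin labelling and hybridisation. The log2 values deposited by the authors, 41345 transcript clusters by 10 arrays, were used as they stand; RMA, Transcriptome Analysis Console, R 3.3.1 and oligo 1.38.0 are listed, with no roles, in the submitters' processing notes. That the scale is log2 was read from the range, 1.27 to 13.58. Neither the genome build nor RMA's summarisation level is given in the sources used here. Scanner files were not used here, so signal over background is unknown; the number of arrays limits the precision.

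Clusters with exactly 1 symbol (23521) were kept, and per symbol the one with the highest mean. All 3 comparisons came from 1 limma 3.58.1 fit in R 4.3.3 of the 10 arrays with a mean per group (lmFit, eBayes, 2-sided, 7 residual degrees of freedom, prior 5.34), with Benjamini-Hochberg adjustment over 22180 genes. A dim-gene filter at 5.5, used as an alternative, keeps all 10 members. From each further list up to 4 called genes per comparison were named by size, and the 3 most similar genes for Cdh1, Cdh2 and Epcam. Some others were named for the loss of a call or for levels below the floor. The members and lists were chosen with earlier results of these data known. Scripts were tested on simulated data. Alternatives covered scaling, filtering, clusters, variance, weights, samples, the replicate block, thresholds and each array left out; applying them to the lists was added after seeing the data. Figures used Python 3.11.15 and matplotlib 3.10.9. Listed genes without a cluster of their own were not analysed here.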

Additional observations from a re-analysis of the deposited data

Results flagged for a closer look

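Among the 10 junction genes, 1 had a stem cell array far from the other 3: Tjp1 in embryonic stem cell replicate 1, at 9.09 against 8.60 to 8.66. The gap to the nearest array was 0.878 of the whole range, above Dixon's 95% critical value for 4 samples, which chance exceeds in about 1 of 20 groups.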

How the results depend on the processing

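Of 600 pairs of a member difference and an alternative (30 differences, 20 alternatives), 576 kept direction and call, 8 lost the call, 1 gained it and 15 changed sign; all 15 concern differences that were not called, and the cause was not tested. By array left out, these ranged from -0.68 to 0.19 for Cdh1, -0.36 to 0.16 for Cldn3 and -0.0058 to 0.89 for Cldn4 in hepatocyte-like against stem cells, and from -0.23 to 0.26 for Cldn7 in adult against stem cells. Cldn7 there was -0.11 with quantile normalization again, -0.0066 with median centring, -0.10 with cyclic loess, -0.16 with array weights and -0.0021 with the replicate block. Cldn3 was 0.084 with the block, and Cdh2 in hepatocyte-like against adult cells -0.071 with cyclic loess. At a minimum log2 difference of 2, 2 members were higher in hepatocyte-like than in stem cells and 3 higher than in adult cells, and 1030, 2107 and 2501 genes were called in hepatocyte-like against stem, hepatocyte-like against adult and adult against stem cells, in place of 3540, 5106 and 5893. With no minimum difference these were 6390, 8003 and 9205, and 1 member, Epcam, was lower in hepatocyte-like than in stem cells, as was 1 with every cluster tested (Cdh1's second). Leaving out single arrays gave 4 to 5 members higher and 0 to 1 lower in hepatocyte-like against stem cells, 4 to 6 higher and 3 lower against adult cells, and 4 higher and 3 lower in adult against stem cells. Replicate numbers did not pair the arrays: deviations of same-numbered arrays correlated at -0.19 to 0.14, over 0.1 in 2 of 9 pairs. The replicate block left the member counts at 5 and 0, 6 and 3, and 4 and 3, with 3518, 5103 and 5926 genes called. Of 690 list counts under alternatives, 43 moved by over 1.5 times, 28 of them by a threshold. Signal near the floor limits Cldn2, Cldn7 and the low levels of Epcam, Cldn4, Cldn6 and Cldn1.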
